A study of Mus musculus with 3 samples.

Results

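TRα1 binding sites (TRBS) were examined at 10 mouse genes that encode nuclear receptors able to bind direct repeats of the same half-site as the thyroid hormone receptors. The genes were the liver X receptors Nr1h3 (LXRα) and Nr1h2 (LXRβ), the peroxisome proliferator-activated receptors Ppara and Ppard, the vitamin D receptor Vdr, the COUP transcription factors Nr2f1, Nr2f2 and Nr2f6, and the testicular receptors Nr2c1 (TR2) and Nr2c2 (TR4). A TRBS was attached to a gene when its summit, the position of highest coverage, lay inside the gene body or within 30 kb of the 5′ end of the gene. This gave 22 of the 23988 TRBS of the series. The chromatin came from the striatum of male C57BL/6J mice, adult and 8 weeks old (the unit is given by the study and not by the labels), which were euthyroid and untreated. All libraries shared the genotype TRa1 GS-tagged, in which a tag is added to TRα1 and the tagged receptor is made in GABAergic neurons. There were 2 ChIP libraries and 1 input library, summarised in 1 peak list. The promoter that drove the recombination was not named in the labels, and the identity of the cells was not checked here because the list holds no expression.

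Nuclear receptors of this kind recognise the half-site AGGTCA. The LXRs, the PPARs and the vitamin D receptor usually do so as dimers with the retinoid X receptor (RXR). The number of bases between a pair of half-sites helps to set which dimer binds. A direct repeat with a spacer of 4 bases (DR4) is the classical element of the thyroid hormone receptors and of the LXRs. DR1 is that of the PPARs and is also bound by the COUP factors and TR2 or TR4, and DR3 is that of the vitamin D receptor. In the brain, LXRs govern cholesterol export, PPARs fatty acid use, and COUP factors the regional identity of developing neurons.

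The sequences below were read from the GRCm38 assembly of RefSeq, and the capitals mark the bases of the repeats. In the first set are the DR4 matches found inside TRBS of the 10 genes, shown because DR4 is the element to which TRα1 itself binds. Each differs from a perfect repeat at no more than 2 of its 12 half-site bases, and the name gives the distance of the TRBS summit from the 5′ end of the gene, negative upstream.
Ppara, TRBS at -28828 bp (chr15:85706101-85706130, plus strand): cccagcaAGGTCAgctcAGGCCAccctgag
Ppard, TRBS at 34213 bp (chr17:28266968-28266997, minus strand): cgccctgAGGGCAtctgAGGACAggggggt
Vdr, TRBS at 20544 bp (chr15:97890071-97890100, plus strand): accagcaAGGGCAaacgAGGGCAagctgat
Nr2f1, TRBS at 5370 bp (chr13:78194474-78194503, minus strand): gttgctgAGGTTAttgaGGGTCAtaaaaaa
Nr2f6, TRBS at 14331 bp (chr8:71367675-71367704, plus strand): ccctgaaAGTTCAagcaAGGTGAgtgtggg

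The Ppara element had 1 mismatch, and the other 4 had 2 mismatches each. None was a perfect repeat.

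The next set holds the DR1 matches, an element that the PPARs, the COUP factors and TR2 or TR4 can bind. Both lay in TRBS next to the start of a testicular receptor gene.
Nr2c1, TRBS at 99 bp (chr10:94148233-94148262, minus strand): gttccctttAGGTGAaAGGTCAccggcccg
Nr2c2, TRBS at 126 bp (chr6:92091494-92091523, minus strand): gtcagtgaaAGGTCAgAGTTCGtgaccccg

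The Nr2c1 element had 1 mismatch and the Nr2c2 element had 2. The last set shows the DNA around 3 of the stronger summits, 100 bp on either side. In the Ppard sequence the capitals mark a DR4-like arrangement with 3 mismatches, as close as this window came to a DR4, and in the Vdr sequence they mark the DR4 given above. In the Ppara sequence no arrangement with up to 3 mismatches to DR4 was present, so that it has no capitals.
Ppard, TRBS at -6417 bp (chr17:28226183-28226383, plus strand): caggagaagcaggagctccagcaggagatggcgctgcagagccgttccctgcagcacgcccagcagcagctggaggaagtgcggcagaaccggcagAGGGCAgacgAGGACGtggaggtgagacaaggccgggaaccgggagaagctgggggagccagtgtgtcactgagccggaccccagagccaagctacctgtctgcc
Vdr, TRBS at 20544 bp (chr15:97889986-97890186, plus strand): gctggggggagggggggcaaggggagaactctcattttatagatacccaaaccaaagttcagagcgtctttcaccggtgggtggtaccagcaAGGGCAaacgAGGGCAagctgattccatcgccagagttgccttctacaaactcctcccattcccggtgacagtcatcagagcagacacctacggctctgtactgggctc
Ppara, TRBS at 14455 bp (chr15:85749338-85749538, plus strand): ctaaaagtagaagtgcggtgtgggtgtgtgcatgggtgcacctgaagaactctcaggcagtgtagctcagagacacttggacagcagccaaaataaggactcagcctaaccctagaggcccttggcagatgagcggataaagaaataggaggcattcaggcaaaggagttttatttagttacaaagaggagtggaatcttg

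At least 1 TRBS was attached to 8 of the 10 genes, and all but 2 had between 1 and 5. By the same rule 57.7% of the 21938 protein-coding genes had a TRBS, so that a TRBS at a gene was common in these data. Vdr had 5 TRBS, Ppard and Nr2f6 had 4 each, Ppara, Nr2c2, Nr2f1 and Nr2f2 had 2 each, and Nr2c1 had 1. Of all protein-coding genes, 6.57% had 5 or more, 10.9% had 4 or more and 32.4% had 2 or more. The median number was 2 per gene among the 10, against 1 per gene over all protein-coding genes. The share with a TRBS rose with gene length. A TRBS was attached to 52.8% of genes of 3 to 20 kb, 58.5% of genes of 20 to 60 kb and 70.2% of genes of 60 to 100 kb. In these length classes 3 of 5, 2 of 2 and 3 of 3 of the receptor genes had one.

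**Figure D1:**
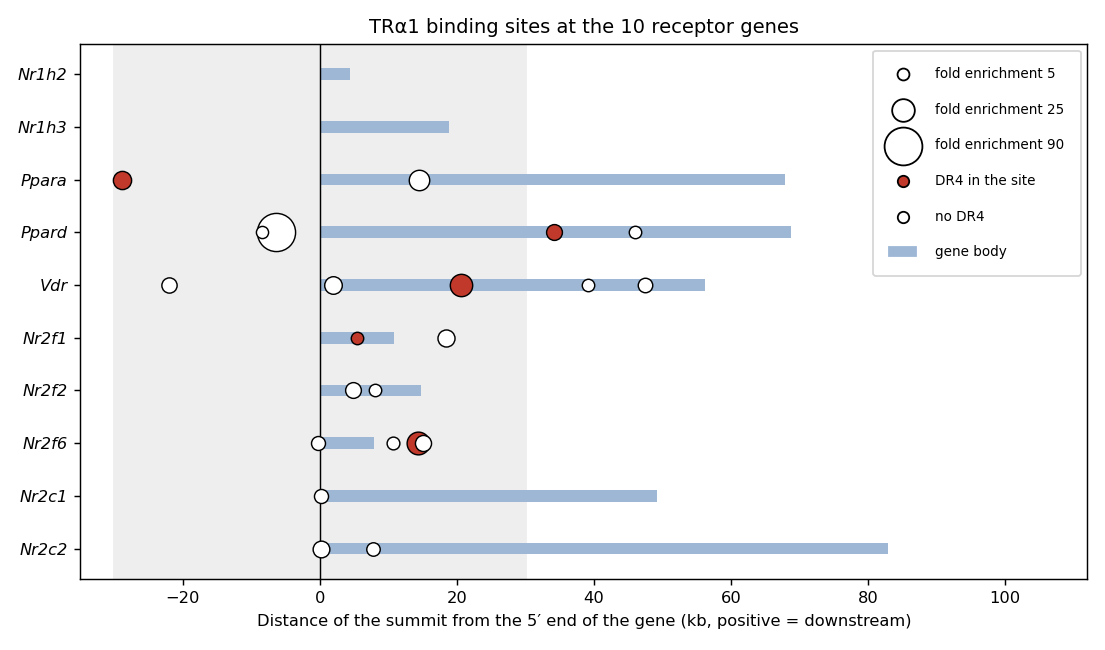
Position of the 22 TRBS at the 10 receptor genes. The horizontal axis is the distance of the summit from the 5′ end in kb, the bars are gene bodies, the grey band marks 30 kb on either side, the area of a circle grows with fold enrichment and red circles hold a DR4. The largest circle is the Ppard TRBS at -6417 bp, and no circle lies on the rows of Nr1h2 and Nr1h3.

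The LXR genes were the ones without a TRBS. LXRs are sensors of oxysterols that act as DR4-binding dimers with RXR. Nr1h2 (ENSMUSG00000060601.13, chr7:44549616-44553951, minus strand) and Nr1h3 (ENSMUSG00000002108.10, chr2:91184061-91202834, minus strand) had 0 TRBS each, as had 42.3% of all protein-coding genes. In both cases the nearest TRBS lay a little outside the limit, with its summit at -34504 bp from the start of Nr1h2 and at -34261 bp from that of Nr1h3. The first had a fold enrichment of 10.8. The second (chr2:91236917-91237315) had a fold enrichment of 9.56 and lay at -113 bp from Ddb2, a gene of DNA damage recognition. Within 50 kb, a distance chosen after seeing the data, Nr1h2 had 3 TRBS and Nr1h3 had 2. When the 30 kb were counted from every annotated transcript start, Nr1h3 gained 1 TRBS with a fold enrichment of 10.4. Nr1h2 stayed at 0 in that count.

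Strength is described by the authors' pileup, the number of ChIP fragments that overlap the summit, and by the fold enrichment, in which the pileup is divided by the background that the peak caller estimated nearby, after 1 is added to each. Ranges after a pileup are 95% exact Poisson intervals, which cover counting error only. No value exists for a single library, so that the spread between mice is not known.

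Ppard, a broadly expressed regulator of fatty acid oxidation (chr17:28232700-28301474, plus strand), had the strongest TRBS of the set. This TRBS (chr17:28225868-28226807) was 940 bp long, with its summit 6417 bp upstream of the gene. Its pileup was 303 fragments (270 to 339) and its fold enrichment was 92.0, which ranked 17 among the 23988 TRBS. The next highest fold enrichment among the 22 TRBS was 25.2. The summit fell in coding exon 9 of Def6-201, a transcript of the neighbouring gene Def6, which encodes a guanine nucleotide exchange factor of lymphocytes. No DR4 with up to 2 mismatches was present in it. The best match in the TRBS had 3 mismatches, as in the sequence above.

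The other TRBS of Ppard were far weaker. At -8520 bp (chr17:28224121-28224375) the pileup was 15 fragments (8.40 to 24.7), and the summit lay in another coding exon of Def6. That summit was also 13 bp from the start of the antisense gene AC126937.1. Inside the first part of the Ppard gene body no TRBS was present. At 34213 bp (chr17:28266711-28267232) the pileup was 29 fragments (19.4 to 41.6), with a fold enrichment of 10.2, and this intronic TRBS held the DR4 shown above. Its centre, from which distances of repeats to summits are counted, was 70 bp from the summit. At 45981 bp (chr17:28278476-28278964) the pileup was 14 fragments (7.65 to 23.5). This TRBS, also intronic, contained a DR5, a DR7 and a DR0, and 41.1% of it was repeat sequence marked by soft masking. The intervals of these 3 pileups overlap one another, and none reaches that of the TRBS at -6417 bp. Just beyond the limit lay 1 more TRBS at -38973 bp, with a fold enrichment of 18.6.

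Ppara, the fasting-responsive regulator of fatty acid breakdown (chr15:85734983-85802819, plus strand), had 2 TRBS, both stronger than most. The intronic one at 14455 bp (chr15:85749252-85749666) had a pileup of 51 fragments (38.0 to 67.1) and a fold enrichment of 19.3. Among all TRBS, 9.30% were as strong or stronger. It held none of the 5 arrangements DR1 to DR5. The upstream one at -28828 bp (chr15:85705764-85706364) had a pileup of 38 fragments (26.9 to 52.2) and a fold enrichment of 14.5. The intervals of the pair overlap. In the upstream TRBS a DR4 with 1 mismatch lay 39 bp from the summit, a match of a quality found in none of the other 21 TRBS and in 3.86% of all, and it also held a DR3 with 2 mismatches. It lay in an intron of the noncoding gene Lncppara, 448 bp from the start of the microRNA gene Mirlet7c-2, and was the TRBS closest to the 30 kb limit from inside.

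Vdr, the receptor for active vitamin D (chr15:97854425-97910630, minus strand), had the most TRBS, of which 4 lay in introns and 1 upstream. The pileups from the upstream to the downstream TRBS were 24 fragments at -21994 bp (chr15:97932405-97932844), 38 at 1931 bp (chr15:97908411-97908909), 64 at 20544 bp (chr15:97889867-97890309), 14 at 39047 bp (chr15:97871514-97871754) and 21 at 47500 bp (chr15:97862948-97863284). The highest, at 20544 bp, had an interval of 49.3 to 81.7 and a fold enrichment of 24.2. Its interval overlaps that of the TRBS at 1931 bp (26.9 to 52.2) and lies above those of the other 3. The DR4 of this TRBS covered the summit base itself. At 1931 bp the fold enrichment was 13.2, and the summit lay 389 bp from the start of another annotated Vdr transcript. The weakest TRBS, at 39047 bp, held a DR2 with 2 mismatches, an everted repeat with a spacer of 6 (ER6) and an inverted repeat without spacer (IR0). Both TRBS in the distal introns were nearer to the 5′ end of Hdac7, a class IIa histone deacetylase gene, than to that of Vdr. The 5′ end of Hdac7 was 27081 and 18628 bp away. An annotated transcript start inside the Vdr gene was closer, at 11885 and 3432 bp.

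The COUP factors act mostly as repressors and shape neuronal identity during forebrain development. Nr2f1 (COUP-TFI, chr13:78188973-78199757, minus strand) had an intronic TRBS at 5370 bp (chr13:78194261-78194565) with a pileup of 14 fragments (7.65 to 23.5), the lowest pileup in the list. Its DR4 was 102 bp from the summit, the farthest of the 5. The other Nr2f1 TRBS, at 18423 bp (chr13:78181051-78181544), lay beyond the 3′ end of the gene in exon 2 of the noncoding gene 3110006O06Rik, and had a pileup of 32 fragments (21.9 to 45.2) and a fold enrichment of 12.3. Nr2f2 (COUP-TFII, chr7:70351944-70366735, minus strand) had 2 TRBS in its gene body. The one at 4778 bp (chr7:70361812-70362152) had a pileup of 30 fragments (20.2 to 42.8) in intronic sequence of 77.1% GC. The one at 8068 bp (chr7:70358488-70358734) had a pileup of 14 fragments, in an exon of a retained-intron transcript. Neither Nr2f2 TRBS held any of the arrangements DR1 to DR5. For both genes the interval of the weaker TRBS overlaps that of the stronger.

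Nr2f6 (EAR2, chr8:71374123-71381960, minus strand), a repressor that can dimerise with other receptors, had 1 TRBS at its own start and 3 at the starts of its neighbours. At -225 bp (chr8:71381925-71382381) the pileup was 19 fragments (11.4 to 29.7), in sequence of 80.1% GC. At 10596 bp (chr8:71371320-71371853) it was 18 fragments (10.7 to 28.4), 66 bp from the start of Ocel1. The strongest, at 14331 bp (chr8:71367233-71367885), had a pileup of 78 fragments (61.7 to 97.3) and a fold enrichment of 25.2. It lay 781 bp inside Use1, which encodes a SNARE protein of Golgi to endoplasmic reticulum transport, and held the DR4 shown above, 61 bp from the summit. Only 683 bp away was the last, at 15014 bp (chr8:71366760-71367144), with a pileup of 34 fragments (23.5 to 47.5) in exon 1 of Use1. The interval of the strongest lies above those of the other 3. If only TRBS whose nearest protein-coding start is that of the gene are counted, Nr2f6 keeps 1 TRBS of the 4, and the TRBS with the DR4 goes to Use1.

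The testicular receptors are orphan receptors expressed in many tissues, the brain included. Nr2c1 (chr10:94148023-94197211, plus strand) had 1 TRBS, at 99 bp (chr10:94147896-94148446), with a pileup of 36 fragments (25.2 to 49.8). Its local background was 3.89 fragments, the highest of the 22 TRBS, where the median over all TRBS was 1.74. Its fold enrichment was 7.57. It held the DR1 shown above, 125 bp from the summit. Nr2c2 (chr6:92091390-92174294, plus strand) had a TRBS at 126 bp (chr6:92091287-92092138) with a pileup of 31 fragments (21.1 to 44.0) and a fold enrichment of 11.6. The summit lay in untranslated exon 1, on a base covered by a DR5, and the centre of an overlapping DR1 was 8 bp away. Each had 2 mismatches, and they shared a half-site. Its other TRBS, at 7694 bp (chr6:92098953-92099222), had a pileup of 18 fragments (10.7 to 28.4), in sequence of 34.8% GC of which 58.9% was soft-masked repeat. The intervals of the Nr2c2 TRBS overlap.

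**Figure D2:**
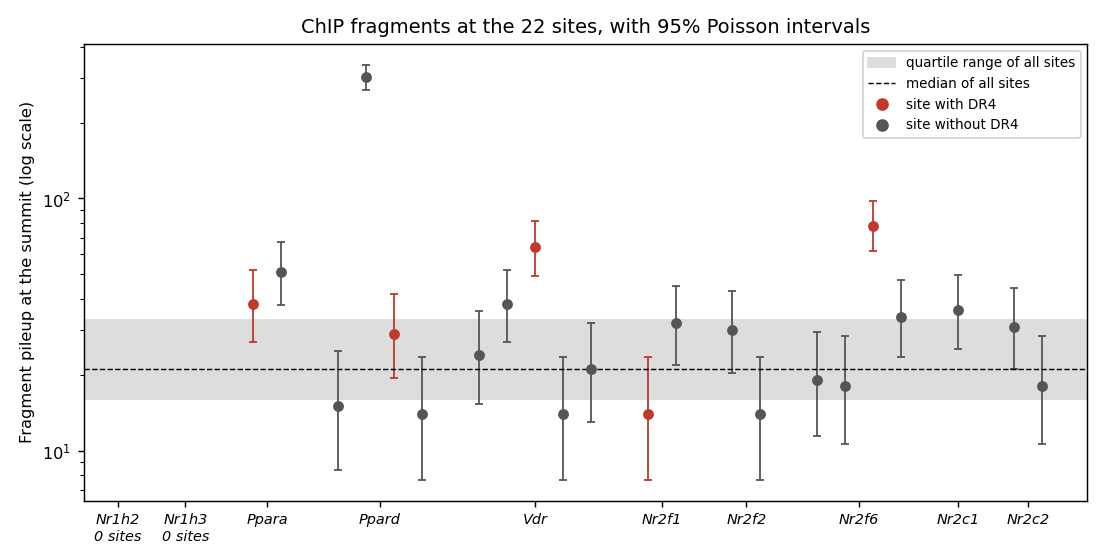
Pileup at the summit of each of the 22 TRBS, in fragments on a log axis, grouped by gene and ordered from upstream to downstream. Bars are 95% Poisson intervals, red points hold a DR4, and the dashed line and grey band are the median and the quartile range of all 23988 TRBS. The Ppard TRBS of 303 fragments stands above the rest, and 4 points lie at the lowest pileup of 14.

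The medians of strength of the 22 TRBS were above those of the list as a whole, while the shares below had wide intervals. Their median fold enrichment was 9.68 (range 5.29 to 92.0), against 7.40 over all TRBS. Of the 22, 15 lay above the median of all TRBS and 4 in the strongest 10%. The median pileup was 29.5 fragments, against 21 over all. The score is 10 times the −log10 q of the peak caller. A score of at least 200 was reached by 11 of 22 TRBS (50.0%, 30.7 to 69.3) and by 31.4% of all. At the other end, 4 of the 22 had the lowest pileup of 14 fragments (18.2%, 7.31 to 38.5), against 10.7% of all TRBS. Each of these intervals holds the share over all TRBS. These 4, at Ppard, Vdr, Nr2f1 and Nr2f2, had the same fold enrichment of 5.58. The set thus held both ends of the range, with 1 TRBS near the top of the list. Without the Ppard TRBS at -6417 bp the median fold enrichment was 9.30. No test was made, since the values of single libraries are not in the list.

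The TRBS lay mostly away from the 5′ end of their own gene. Gene bodies held 13 of the 22 (59.1%, 95% Wilson interval 38.7 to 76.7), 5 lay upstream and 4 beyond the 3′ end. Within 1 kb of their own start were 3 TRBS (13.6%, 4.75 to 33.3), those of Nr2f6, Nr2c1 and Nr2c2. With the starts of neighbouring protein-coding genes included, 6 TRBS (27.3%, 13.2 to 48.2) lay within 1 kb of a start, against 20.4% of all TRBS, a share within that interval. For 16 of the 22 the nearest protein-coding start was that of the receptor gene. The remaining 6 were nearest to Use1 and Hdac7, with 2 each, and to Ocel1 and Fance, a Fanconi anaemia gene, with 1 each. These counts use 1 start per gene, its 5′ end. For the TRBS assigned to Hdac7 and Fance, an annotated transcript start inside the receptor gene was closer. The distance to the next TRBS had a median of 9637 bp, against 16569.5 bp over all TRBS. The rule picks TRBS by their position in windows around genes, so that these positions and distances follow in part from the rule. The same measures for TRBS attached to other genes were not computed.

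In base composition the 22 TRBS had a median of 56.8% GC, against 49.6% over all TRBS. Their median ratio of observed to expected CpG was 0.529, against 0.278. The 6 TRBS near a protein-coding start had a median of 70.3% GC and the other 16 had 54.2%. Over all TRBS the corresponding medians were 64.3 and 47.6%, below those of the 22 for both kinds. The length was similar, with a median of 450 bp against 422 bp.

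A DR4 was present in 5 of the 22 TRBS (22.7%, 10.1 to 43.4), against 17.3% of all TRBS, a share inside the interval. Control windows, each as wide as its TRBS and shifted right by 5 kb, contained a DR4 in 3 of 22 cases (13.6%), against 5.9% of all such windows. The interval of the 3 windows, 4.75 to 33.3%, overlaps that of the 5 TRBS, and the shares were not tested against each other. The other spacers were rarer. DR1 was present in 2 TRBS (5.94% of all TRBS), DR2 in 1 (5.06%), DR3 in 1 (5.88%), DR5 in 2 (6.31%), DR0 in 3 (7.12%) and DR7 in 1 (5.02%). DR6 and DR8 were in 0 of 22 TRBS, for which the interval reaches 14.9%, and in 5.29 and 5.66% of all. ER6 and IR0 were found in 1 TRBS each, the one at 39047 bp of Vdr, against 2.69 and 2.44% of all. Any of DR1 to DR5 was present in 9 of 22 TRBS and in 9 of 22 windows, against 31.8% of all TRBS and 25.4% of all windows. Of the genes whose receptors bind DR1, Nr2c1 and Nr2c2 had it in a TRBS, while Ppara, Ppard, Nr2f1, Nr2f2 and Nr2f6 did not. The DR3 was at Ppara and not at Vdr. The control windows of the 22 TRBS held a DR1 in 2 cases and a DR3 in 2. With so few matches, no relation between a gene and the element of its receptor can be read.

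**Figure D3:**
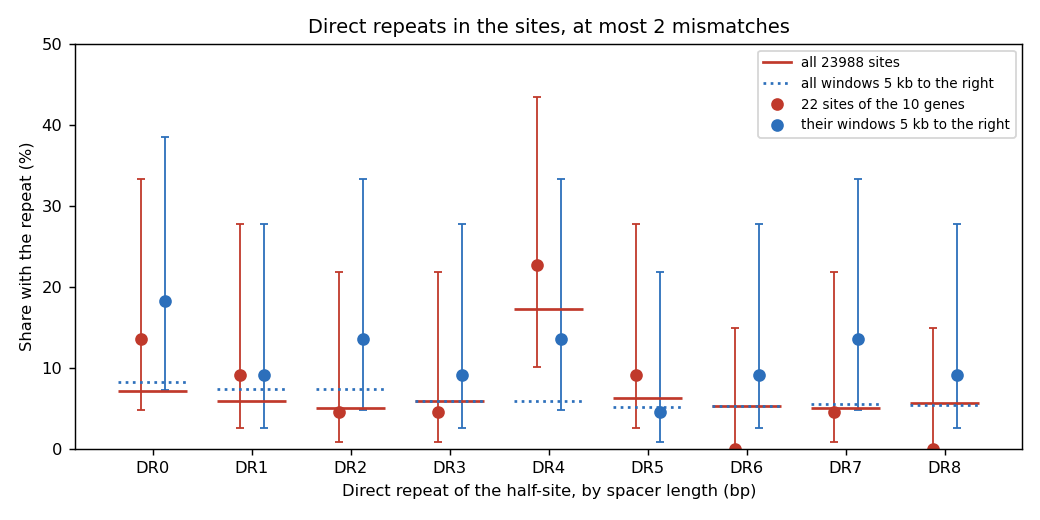
Share of TRBS with each direct repeat, in percent, by spacer length from DR0 to DR8. Red points are the 22 TRBS and blue points their windows 5 kb to the right, with 95% Wilson intervals, and the lines are the shares over all TRBS (solid) and all windows (dotted). DR4 has the highest red point at 22.7% and the highest red line at 17.3%, and all intervals of the 22 TRBS are wide.

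The 5 TRBS with a DR4 had fold enrichments of 14.5 at Ppara, 10.2 at Ppard, 24.2 at Vdr, 5.58 at Nr2f1 and 25.2 at Nr2f6, with a median of 14.5. The 17 without ran from 5.29 to 92.0 with a median of 8.18, and the values of the 5 all fell between these ends. Over all TRBS the medians were 8.18 with and 7.08 without a DR4. The DR4 lay within 100 bp of the summit in 4 of the 5, Nr2f1 being the exception. Over all TRBS, 13.1% had a DR4 within 100 bp of the summit.

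Most DR4 matches at these genes were outside TRBS. In the gene bodies and the 30 kb on either side of the 5′ ends there were 86 matches, of which 5 (5.81%) lay in a TRBS. Across the genome 290078 matches were found, and 1.82% of them lay wholly in a TRBS. The genome share includes sequence far from any gene, so that it is not a like baseline for windows around genes. A share over the windows of other genes was not computed. The number of matches ran from 1 at Nr1h3 and 4 at Nr1h2 and Nr2f1 to 8 at Nr2f2 and Nr2f6, 9 at Nr2c1, 12 at Ppard, 13 at Ppara and Nr2c2, and 14 at Vdr. Nr2c2 thus had 13 matches with 0 in a TRBS, while Nr2f1 had 1 of its 4 in a TRBS. Of the 12 matches with 1 mismatch at the 10 genes, 1 was in a TRBS, the one upstream of Ppara. A match outside the listed TRBS is not thereby shown to be unbound. Matches outside TRBS with 1 mismatch and free of masked repeat sequence were present at Nr2c2, Nr2f2, Nr2f6 and Ppara. Those of Nr2c2 and Nr2f6 are given for comparison with the elements inside TRBS above.
Nr2c2, DR4 at -5609 bp (chr6:92085766-92085795, plus strand): gaagctcAGGTCAaggcAGTTCActagggg
Nr2f6, DR4 at -1711 bp (chr8:71383656-71383685, minus strand): gttttttTGGTCAgccaAGGTCAcctgctg

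Both had fewer mismatches than the elements inside the TRBS of Ppard, Vdr, Nr2f1 and Nr2f6. Across the genome 14.7% of the 1119 perfect matches lay in a TRBS, against 4.04% of those with 1 mismatch and 1.6% of those with 2.

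Short motifs of other factors were searched on both strands without mismatches. The AP-1 motif TGANTCA, bound by Fos and Jun, was in 0 of 22 TRBS (interval up to 14.9%), against 19.7% of all. The share over all TRBS lies outside that interval, but AP-1 was 1 of 7 motifs searched and the difference was not tested. TRBS of like base composition or position were not compared. The GC box GGGCGG, bound by Sp factors, was in 9 of 22 (40.9%, 23.3 to 61.3), against 28.6%. A single half-site AGGTCA, which is also part of the repeats, was in 7 of 22 (31.8%), against 30.7%. The ETS motif CCGGAAG was in 2 (6.59% of all) and the E-box CACGTG in 1 (10.3% of all). The cAMP response element, TGAC followed by GTCA, was in 0 (1.33% of all), and the MEF2 motif, CTA and TAG around 4 free bases, in 1 (7.2% of all). A missing match says only that these letters are not in the window.

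The 10 genes were set beside the 39 other nuclear receptor genes of the mouse. Of these, 26 (66.7%) had at least 1 TRBS by the same rule, against 8 of the 10 and 57.7% of all protein-coding genes. The most TRBS were attached to Nr1d1 (13), the circadian repressor REV-ERBα, to Thrb (11), which encodes the thyroid hormone receptor TRβ, and to Rora (9), the activator that opposes REV-ERB. Nr1d1 lies next to Thra, and part of its TRBS were counted for both genes. Vdr, with 5 TRBS, was exceeded by 9 of the 39. The 110 TRBS of the other receptors had a median fold enrichment of 7.70, against 9.68 for the 22, and 18.2% of them held a DR4, against 22.7%.

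**Figure D4:**
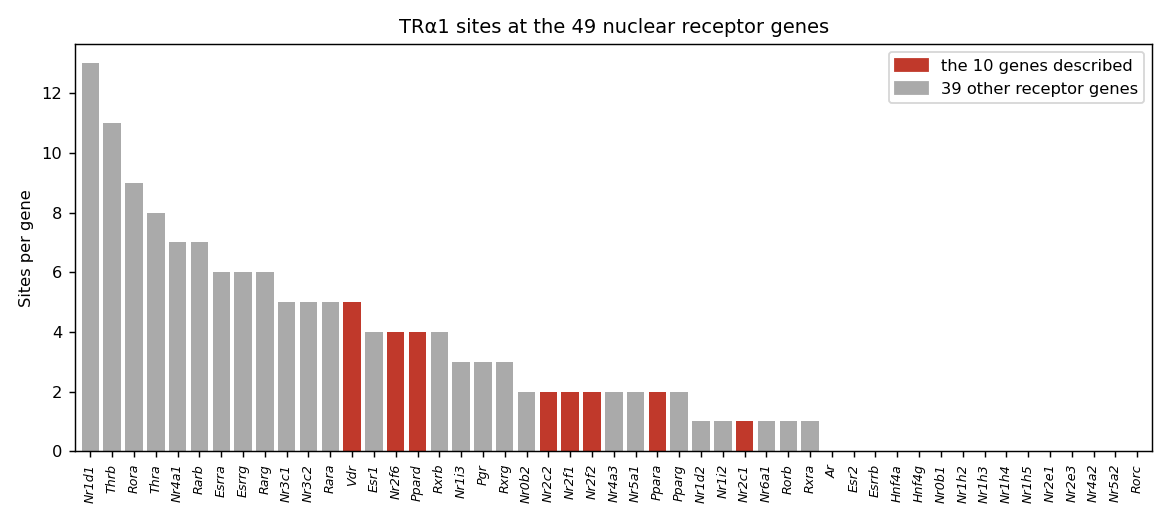
Number of TRBS attached to each of the 49 nuclear receptor genes, ordered from most to fewest, with the 10 genes described in red. Vdr has the most of the red bars at 5, Nr1h2 and Nr1h3 have 0, and the tallest grey bar is Nr1d1 at 13.

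Known target genes of these receptors, written as lists from general knowledge, were examined by the same rule. Of 10 LXR targets, which serve cholesterol efflux and lipid synthesis, all 10 had a TRBS, while the LXR genes had none. The 10 genes had 18 TRBS, of which 4 held a DR4, and the strongest was at Scd1, the stearoyl-CoA desaturase, 19186 bp from its 5′ end with a fold enrichment of 56.2. Of 10 PPAR targets, which serve fatty acid oxidation, 5 had a TRBS. They had 7 TRBS, of which 1 held a DR4. Of 6 VDR targets, 4 had a TRBS, with 5 TRBS in all and 0 with a DR4. The strongest was attached to Calb1, which encodes the calcium buffer calbindin, with a fold enrichment of 8.71. It lay at -29836 bp from the 5′ end, close to the 30 kb limit. Together 19 of the 26 target genes (73.1%) had a TRBS, against 57.7% of all protein-coding genes. With a score of at least 200 the numbers were 5 of 10 for LXR, 2 of 10 for PPAR and 0 of 6 for VDR targets. When only TRBS nearest to the start of the target itself were counted, LXR targets stayed at 10 of 10, while PPAR targets went from 5 to 1 of 10 and VDR targets from 4 to 2 of 6. The share of all protein-coding genes was not computed under these settings, so that the lists cannot be set against it there. Whether any of these TRBS is shared with the other receptors was not measured.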

How the data were processed

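The authors crosslinked striatum with disuccinimidyl glutarate and formaldehyde, aligned the reads to mm10 (GRCm38) and called peaks. The submitters' processing notes name Bowtie2 2.3.2.2 and MACS2 2.1.1.20160309.0. Whether the 2 ChIP libraries were pooled, how duplicates were treated and the depth of each library were not given in the sources used here. The deposited list holds, for each peak, the pileup (coverage signal at the summit), the fold enrichment (a ratio), the −log10 q value, and a score with a lowest value of 60. The −log10 p values were not used. The deposited peak length (bp) was taken over.

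Peaks were attached to genes of GENCODE vM21 by their summits. The 10 genes, the lists of 39 receptors and 26 targets, and the measures were chosen with earlier results of these data known. Direct repeats of AGGTCA with 0 to 8 spacer bases, ER6 and IR0 were searched on both strands with at most 2 mismatches in 12 bases, and 7 short motifs without mismatches. Shares are given with 95% Wilson intervals over TRBS and pileups with 95% Poisson intervals, both for counting error only. Nothing was tested, because no value exists per library. The named genes are the 10 receptors, genes nearest to their TRBS, the 3 other receptors with most TRBS and the strongest of the LXR and VDR target lists. That of the PPAR list is not reported here. Genes that contain a summit, Ddb2, which lies next to a TRBS outside the limit, and Thra were named after their values were seen. The scripts ran in Python 3.11.15 with matplotlib 3.10.9, scipy 1.17.1, pandas 2.3.3 and numpy 2.4.6, and 2200 of 2200 planted repeats were found in simulated sequence.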

Additional observations from a re-analysis of the deposited data

How the results depend on the processing

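Of 59 values under alternative settings, 14 moved and 45 did not, and 5 of the 59 were added after seeing the data. A count or median was taken as moved beyond 1.5 times the reported value, and a share outside its 95% Wilson interval, which is wide for 22 TRBS. The number of TRBS at the 10 genes was 11 with a score of at least 200 and 13 with gene bodies only. The target genes with a TRBS fell from 19 to 7, 12 and 8 with a score of at least 200, a distance of 10 kb and gene bodies only. With at most 1 mismatch the DR4 share was 4.55% (3.86% of all TRBS), and DR2, DR3 and DR5 were at 0% (0.425, 0.538 and 0.629% of all). With at most 3 mismatches the shares were 72.7% for DR4 (52.9% of all), 36.4% for DR1 (37.2% of all) and 27.3% for DR3 (38.2% of all). Within their intervals, DR2 went to 18.2% (34.4% of all) and DR5 to 27.3% (37.7% of all) at this limit. DR1 was at 4.55% with at most 1 mismatch (0.821% of all). DR1 and DR5 were also at 4.55% within 100 bp of the summit (2.58 and 3.23% of all). With a score of at least 200, DR4 was at 36.4% (21.7% of all) and DR3 at 9.09% (8.0% of all). DR2 was at 0% with a score of at least 200 (6.99% of all) and DR3 at 0% within 100 bp of the summit (2.76% of all). The genes with a TRBS numbered between 7 and 10 of 10, with Nr2c1 lost at the stricter score, Nr2f6 lost with gene bodies only, and both LXR genes gained at 50 kb. For these alternatives the share of all protein-coding genes with a TRBS was not computed. The median fold enrichment ran from 7.87 to 13.2. In the cases where a mismatch limit, a score or a distance moved a value, it did so by admitting fewer or more matches or TRBS. The small number of TRBS and the lack of depth per library limit every share. No paired analysis was possible because the list carries no values for single libraries, and no library could be left out.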
